A study of Mus musculus with 8 samples.

Results

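The segment of mouse chromosome 8 from 80 to 100 Mb (mm9) was taken as all peaks with a center within these limits. It held 400 of the 22051 p300 peaks called in control cells and 231 of the 9154 called after bexarotene, or 631 of 31205 p300 peaks in all. The segment was chosen by its high density of called p300 peaks in these lists, so that density is given here as a description and was not tested. The lists of myogenin held 48 of 5912 peaks in the segment in control cells and 70 of 6642 after bexarotene. The cells were C2C12 myoblasts, an established mouse muscle line of strain C3H, differentiated for 24 h in low serum without (control) or with 50 nM bexarotene. ChIP used antibody sc-584 for p300 and sc-12732X for myogenin. Each of the 4 lists comes from 1 library, so there was no replicate spread against which to test a difference between conditions, and intervals below cover counting error only. The deposited lists give positions without tag counts, so depth and the height of a peak are unknown, and read coverage of the segment in any library, inputs included, was not analysed here. The copy number of the segment in this line and its mappability were not analysed either, and the peak numbers below are not adjusted for them.

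p300 is a histone acetyltransferase that is recruited by transcription factors and is widely used to mark active enhancers. Myogenin is a basic helix-loop-helix factor of muscle differentiation that binds the E-box. Bexarotene is a selective agonist of the retinoid X receptor (RXR), a nuclear receptor that binds DNA as a dimer.

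Sequences of 7 peaks are shown as examples of the loci that stood out by overlap or length: regions that all 4 lists shared, the longest control p300 peaks and a longer locus called only after bexarotene. Peaks of the smallest length, the commonest kind in the segment, are not among them. Each is the central 200 bp on the plus strand of mm9, from 5′ to 3′. Capitals mark an E-box (CAGCTG, or CACCTG on either strand) and the consensus bound by AP-1 factors of the bZIP family (TGAGTCA on either strand). The Inpp4b locus was chosen after its values were seen.
Fto intron 3, in all 4 lists (chr8:93948476-93948675): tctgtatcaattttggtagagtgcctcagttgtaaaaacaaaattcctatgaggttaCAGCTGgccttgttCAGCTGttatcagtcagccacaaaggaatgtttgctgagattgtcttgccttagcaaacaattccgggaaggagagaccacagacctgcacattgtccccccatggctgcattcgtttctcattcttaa
Gab1 intron 1, in all 4 lists (chr8:83339231-83339430): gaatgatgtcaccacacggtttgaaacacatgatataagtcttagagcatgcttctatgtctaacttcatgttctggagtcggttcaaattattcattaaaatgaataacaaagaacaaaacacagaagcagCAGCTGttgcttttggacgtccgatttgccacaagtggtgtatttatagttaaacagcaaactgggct
Nod2 intron 2, in all 4 lists (chr8:91179365-91179564): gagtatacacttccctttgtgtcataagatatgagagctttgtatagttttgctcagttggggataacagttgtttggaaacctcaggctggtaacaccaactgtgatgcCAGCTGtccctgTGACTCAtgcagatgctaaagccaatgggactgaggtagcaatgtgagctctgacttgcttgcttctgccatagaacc
Intergenic near Tmem188, in all 4 lists (chr8:90581766-90581965): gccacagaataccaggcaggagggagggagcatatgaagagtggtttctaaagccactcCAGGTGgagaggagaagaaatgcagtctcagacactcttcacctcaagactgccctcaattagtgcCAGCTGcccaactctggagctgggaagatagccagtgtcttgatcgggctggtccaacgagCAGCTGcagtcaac
Rnf150 intron 1, longest control p300 peak (chr8:85395012-85395211): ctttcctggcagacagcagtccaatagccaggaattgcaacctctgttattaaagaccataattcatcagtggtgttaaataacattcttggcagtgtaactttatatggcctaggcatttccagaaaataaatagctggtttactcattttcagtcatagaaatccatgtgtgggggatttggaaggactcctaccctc
Intergenic, nearest TSS Irx3, second longest control p300 peak (chr8:94425763-94425962): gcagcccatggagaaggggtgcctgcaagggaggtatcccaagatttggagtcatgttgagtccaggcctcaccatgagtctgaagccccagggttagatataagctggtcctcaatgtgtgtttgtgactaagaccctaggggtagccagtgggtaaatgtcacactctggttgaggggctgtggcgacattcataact
Inpp4b intron, bexarotene-only p300 peak (chr8:84300705-84300904): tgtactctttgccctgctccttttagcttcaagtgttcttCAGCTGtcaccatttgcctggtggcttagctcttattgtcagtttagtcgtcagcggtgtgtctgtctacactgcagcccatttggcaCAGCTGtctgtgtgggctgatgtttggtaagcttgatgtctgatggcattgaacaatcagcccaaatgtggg
The Fto locus held 2 copies of CAGCTG and the Nod2 locus held an E-box beside a bZIP consensus. The long peaks at Rnf150 and with Irx3 as the nearest TSS held neither within these 200 bp. The loci named by Irx3 and Tmem188 lay over 50 kb from those TSS. These loci are examples, and no contrast between shared and long peaks is drawn from them: of the 7 regions in all 4 lists, the longest, in intron 7 of Fto, also held neither in its central 200 bp.

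The 400 control p300 peaks made a density of 20 per Mb, against 7.81 per Mb over the rest of chromosome 8 and 9.07 per Mb over the other autosomes. After bexarotene the density was 11.55 per Mb in the segment and 3.42 per Mb in the rest of the chromosome. The ratio of segment to rest was 2.56 in control cells and 3.38 after bexarotene. The segment took 16.0% of the known bases of the chromosome and 19.1% of its protein-coding TSS, but 32.8% of its control and 39.2% of its bexarotene p300 peaks. Among 132 windows of 20 Mb along the genome, the segment ranked 1 for p300 in both conditions, ahead of a window of chromosome 15 with 16.85 and 7.65 peaks per Mb. It ranked 47 for coding TSS.

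Myogenin peaks did not enter the choice of the limits. The control density was 2.40 per Mb in the segment and 2.39 per Mb in the rest of the chromosome, a ratio of 1.01 (95% exact interval 0.723 to 1.37). After bexarotene the densities were 3.50 and 2.68 per Mb, a ratio of 1.31 (0.990 to 1.70). Both intervals include 1, but the reading depends on what the segment is set beside and on which peaks are counted. With assembly gaps counted in the length, the bexarotene ratio was 1.39 (1.06 to 1.81). Against 100 to 120 Mb alone the myogenin ratios were 1.78 (1.09 to 2.96) in control cells and 2.26 (1.46 to 3.57) after bexarotene, and against 60 to 80 Mb they were 0.823 (0.550 to 1.23) and 1.14 (0.798 to 1.64). For peaks longer than the smallest of their list alone, the ratios to the rest were 0.603 (0.311 to 1.07) and 0.850 (0.528 to 1.31). With all peaks, the segment ranked 50 and 33 of the 132 windows for myogenin. A large part of its myogenin peaks lay in the gene-dense bins from 86 to 88 Mb. Without these bins, an alternative chosen after seeing the data, the ratios were 0.629 (0.406 to 0.937) and 0.912 (0.648 to 1.26) for myogenin and 2.41 and 3.19 for p300.

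**Figure D1:**
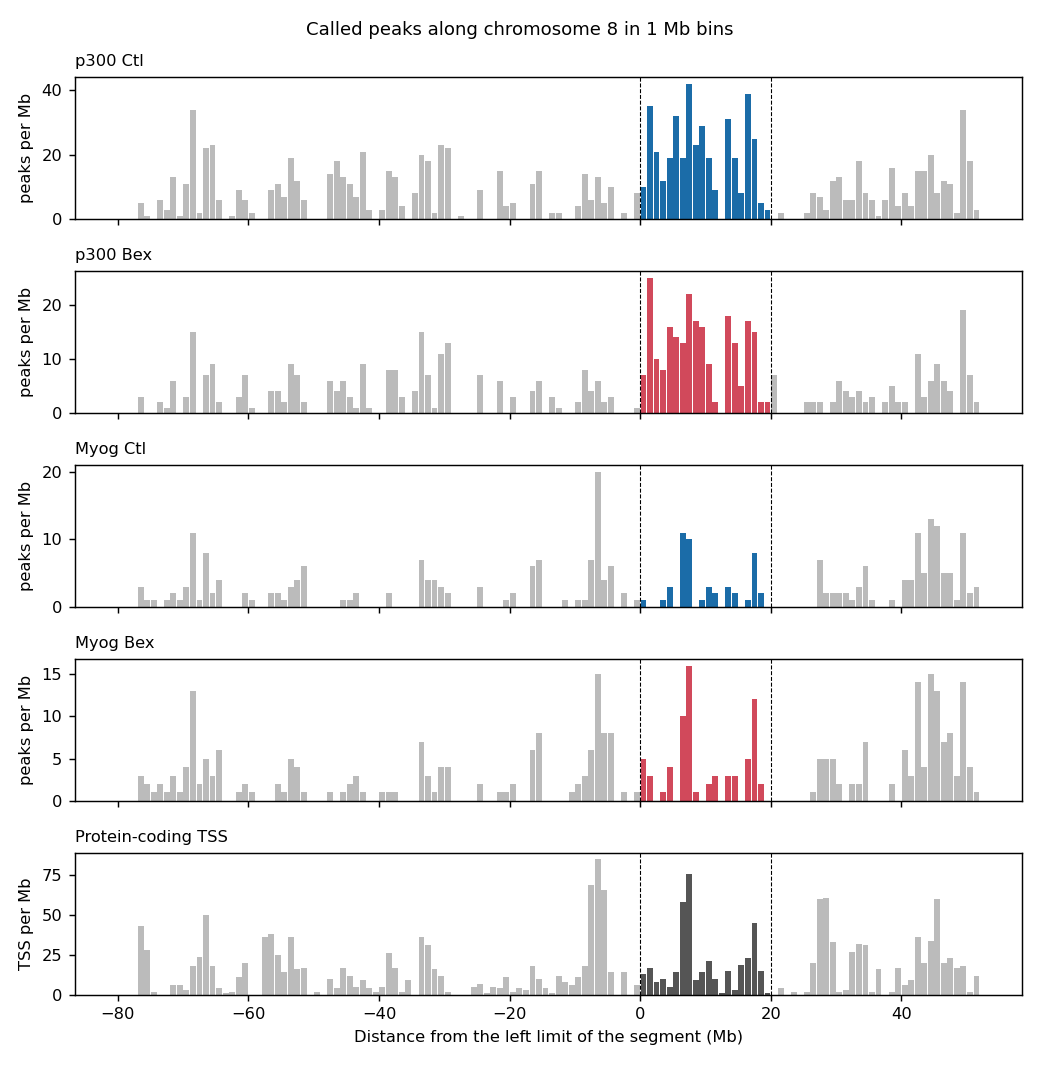
Called peaks per 1 Mb bin along chromosome 8 for the 4 lists, and protein-coding TSS per bin, against distance in Mb from the left limit of the segment; colored or dark bars are bins of the segment and dashed lines its limits. The p300 bars are high across most of the segment, up to 42 in control cells and 25 after bexarotene, while the myogenin bars are high in a few bins that also hold many TSS.

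Within the segment p300 peaks were spread over most of the 20 bins of 1 Mb, with a median of 19 control peaks per bin against 6 in the rest of the chromosome. The bin starting at 87 Mb, which holds Junb and Nfix, had 42 control peaks, the most on the chromosome. The bins starting at 96 and 81 Mb followed with 39 and 35. After bexarotene the bin starting at 81 Mb, which holds Slc10a7 and Zfp827, was highest with 25 peaks. In 100 kb bins, 64.0% held a control p300 peak in the segment and 33.1% in the rest of the chromosome. The median spacing of neighboring control peaks was 19.6 kb in the segment and 33.0 kb outside.

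The high density was interrupted by a wide gap. No control p300 peak was called from 91.3 to 93.0 Mb and no bexarotene peak from 91.3 to 93.3 Mb, and the bin starting at 92 Mb was empty in all 4 lists. The gap holds Sall1 and Tox3, a zinc finger and an HMG-box protein gene, which had no peak of any list within 10 kb.

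Bins of like gene content were also compared. In bins with 0 to 4 coding TSS, the mean was 7.33 control p300 peaks over 3 bins of the segment and 4.46 over 39 bins outside. In bins with 5 to 14 coding TSS, the mean was 19.4 control p300 peaks over 8 bins of the segment and 7.12 over 25 bins outside. In bins with 15 to 39 TSS, the means were 22.8 over 6 bins and 11.97 over 33 bins. In bins with 40 or more TSS, the means were 28.7 over 3 bins and 8.63 over 8 bins. Per coding TSS, the ratio of segment to rest was 2.07 in control cells and 2.73 after bexarotene. Across the 20 bins, which share each library, control and bexarotene p300 counts were correlated (Pearson's r = 0.92). For p300 and myogenin counts, r was 0.30 in control cells and 0.44 after bexarotene. Over the bins of the rest of the chromosome, r for p300 and myogenin was 0.53 and 0.59. These correlations are descriptions and carry no test.

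The edges of the dense stretch were placed by a fit. A single raised block fitted to control counts in 100 kb bins ran from 81.1 to 98.2 Mb and held 386 peaks at 22.6 per Mb, against 7.73 per Mb outside it. The same fit to bexarotene counts ran from 81.1 to 98.1 Mb. These best edges lay inside the limits, but the left edge is loosely placed. Edges within 4 log-likelihood units of the best reached from 79.8 to 81.2 Mb and from 97.6 to 98.5 Mb in control cells, and from 79.6 to 81.2 Mb and from 97.8 to 98.6 Mb after bexarotene. These ranges assume an even density inside the block, which the bins do not show, and are therefore too narrow. For peaks longer than the smallest of their list alone, the best block lay elsewhere, at 129 to 129.5 Mb in control cells and at 11.2 to 11.5 Mb after bexarotene.

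On the left, control counts rose after the limit and not at it, with 8 peaks from 79 to 80 Mb, 10 from 80 to 81 Mb and 35 from 81 to 82 Mb. The 2 Mb before 80 Mb held 8 control and 1 bexarotene p300 peaks, and the 2 Mb after it held 45 and 32. The limit itself falls in Arhgap10, with the nearest control peaks 42.6 kb before it and 16.4 kb after it. Nr3c2, the mineralocorticoid receptor, is the next gene outside, with 4 control p300 peaks and no bexarotene peak. On the right, counts fell before the limit. There were 64 control and 32 bexarotene peaks from 96 to 98 Mb, and 8 and 4 from 98 to 100 Mb. The 5 Mb past the right limit held 2 control and 7 bexarotene peaks. The next coding gene on that side, the cadherin gene Cdh8, had no peak of any list within 10 kb.

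Many p300 peaks of the segment had the smallest length. The shortest peaks of a list all have the same length, 159 bp in control and 158 bp after bexarotene. In control cells 53.0% of the peaks in the segment had this length, against 35.8% in the rest of the chromosome. After bexarotene the shares were 65.8% and 52.0%. These short peaks are part of the p300 count for which the segment was chosen, so the shares are a description. Myogenin peaks showed a difference of the same sign, 72.9% against 54.8% in control cells and 65.7% against 47.3% after bexarotene. The share of long control peaks, of 500 bp or more, was close to that outside, 6.5% (26 peaks) against 6.97% (57 peaks). After bexarotene it was 2.16% (5 peaks) in the segment and 0.838% (3 peaks) outside. Among peaks longer than the smallest, the density ratio of segment to rest was 1.88 in control cells and 2.41 after bexarotene. In the 0.5 Mb from 81.5 Mb, around Zfp827, 17 bexarotene peaks were called, and none was longer than the smallest. The part of the short peaks in the density was not tested.

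**Figure D2:**
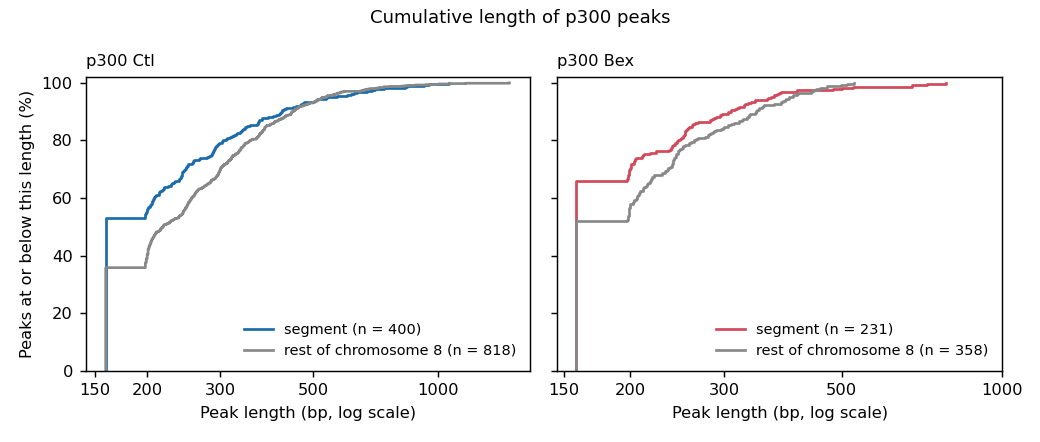
Cumulative share of p300 peaks (percent) at or below a given length (bp, log scale), for the segment (colored) and the rest of chromosome 8 (grey), in control cells (left) and after bexarotene (right). The first step is the smallest length, which holds 53.0% of the control peaks of the segment and 35.8% of those outside it.

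The comparison of conditions rests on overlap by at least 1 bp. In the segment, 281 of the 400 control p300 peaks (70.3%) had no bexarotene peak over them, where 67.3% of all control p300 peaks were control-only. The share in the rest of the chromosome was 65.8%. Of the 231 bexarotene peaks, 112 (48.5%) were bexarotene-only, where 20.3% of all bexarotene p300 peaks were. The share in the rest of the chromosome was 20.7%. Both kinds of peak belong to the count for which the segment was chosen, so these shares are a description. With overlap set at 50% of both peaks, the bexarotene-only shares were 58.9% in the segment and 46.4% outside. The control-only shares were then 76.3% and 76.5%. For peaks longer than the smallest, the control-only shares were 48.4% in the segment and 52.8% outside, of the opposite sign. The segment held 6.03% of all bexarotene-only p300 peaks of the genome but 1.81% of the control and 2.52% of the bexarotene peaks. The ratio of bexarotene to control peak numbers was 0.578 in the segment and 0.438 in the rest of the chromosome.

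The bexarotene-only peaks were mostly small. Their median length was 158 bp, and none reached 500 bp. They were found in 17 of the 20 bins. Their median distance to the nearest control peak was 7.57 kb, in a segment chosen for its closely spaced control peaks. Among bexarotene peaks longer than the smallest, 19.0% of 79 were bexarotene-only in the segment and 7.56% outside. For myogenin, 22 of 48 control peaks were control-only (45.8%, where 49.4% of all were) and 44 of 70 bexarotene peaks were bexarotene-only (62.9%, where 54.9% of all were).

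**Figure D3:**
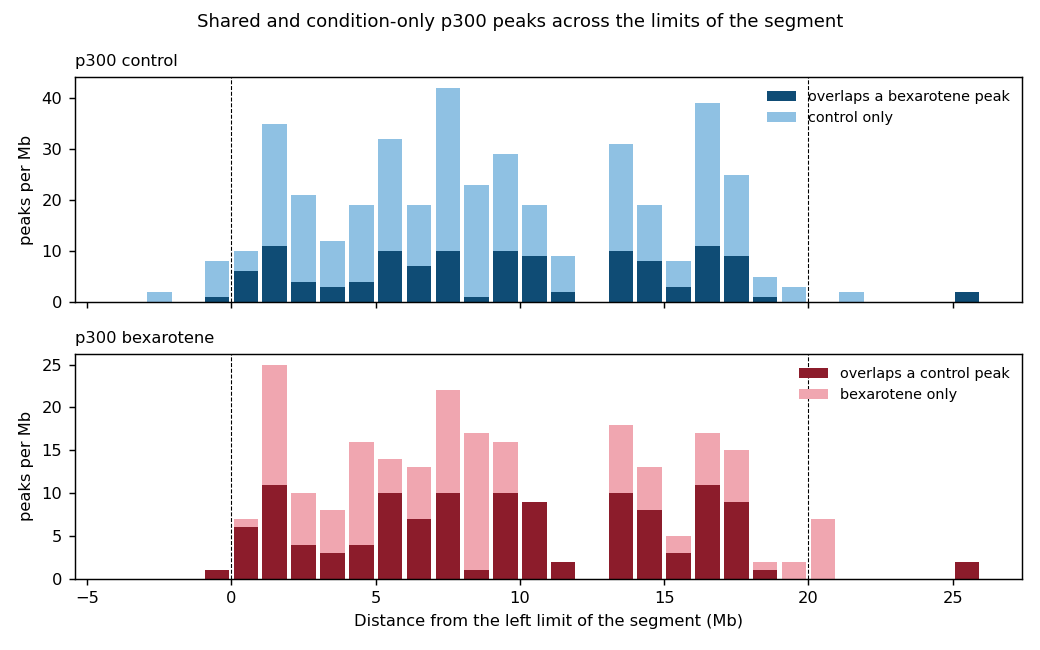
p300 peaks per 1 Mb bin in the segment and the bins next to it, split into peaks that overlap a peak of the other condition (dark) and peaks of 1 condition only (light), against distance in Mb from the left limit; dashed lines are the limits. Bexarotene-only peaks appear in 17 of the 20 bins and 7 more lie just past the right limit.

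Counts per gene follow in part from the density that chose the segment and are given as a description. Of its 207 coding genes, 119 (57.5%) had a control p300 peak in the gene or within 10 kb, against 242 of 869 (27.8%) in the rest of the chromosome. After bexarotene the shares were 44.0% and 16.0%. For myogenin they were 16.9% and 19.9% in control cells and 21.3% and 20.4% after bexarotene. A total of 15 genes had peaks of all 4 lists, or 7.25% (95% interval 4.44 to 11.6). In the rest of the chromosome 5.06% had (3.79 to 6.73). No peak of any list was found at 67 genes (32.4%), against 57.1% in the rest.

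Rnf150, a RING finger protein, had the most control p300 peaks, 25, and with Inpp4b the most bexarotene p300 peaks, 13. It had no myogenin peak. The largest cluster, 13 control peaks in 55.0 kb, lay in this gene (chr8:85439340-85494370). Fto, an RNA demethylase, had 19 control and 12 bexarotene p300 peaks with 2 and 3 myogenin peaks. Counts take in the 10 kb flanks and are not adjusted for gene length. Inpp4b, which spans 782 kb, and Junb, which spans 1.81 kb, both had 9 control p300 peaks with flanks included. Of the 9 for Junb, 2 lay at a promoter and 0 in an intron. The flanks of Junb overlap those of Prdx2, Hook2 and Rnaseh2a, which had 7, 5 and 4 control p300 peaks. A peak can count for several of these genes.

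Several genes of signaling and metabolism were among those with most peaks. Gnao1, a G protein alpha subunit, had 12 control and 6 bexarotene p300 peaks. It had 3 myogenin peaks after bexarotene alone, all of the smallest length. Adcy7, an adenylate cyclase, had 9 and 4 p300 peaks. Gab1, a docking protein of receptor tyrosine kinases, had 9 and 3, with 1 myogenin peak in each condition. Inpp4b, a phosphoinositide phosphatase, went the other way with 9 control and 13 bexarotene p300 peaks, of which 2 overlapped and 11 were bexarotene-only, where 48.5% of the bexarotene p300 peaks of the segment were. Of these 13 peaks, 10 had the smallest length. Phkb, the beta subunit of phosphorylase kinase in glycogen breakdown, had 5 control and 7 bexarotene peaks, none of them overlapping, where 70.3% of the control and 48.5% of the bexarotene p300 peaks of the segment were of 1 condition only, and 6 of the 7 had the smallest length. Among the others, Zfp827, a zinc finger protein, had 8 and 8, of which 2 overlapped. Slc10a7, a solute carrier, had 9 and 6, and the ciliary protein gene Rpgrip1l had 8 and 4.

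Genes for transcription and chromatin factors were also among them. Nfix, a nuclear factor I protein of the muscle lineage, had 11 control and 5 bexarotene p300 peaks and 3 myogenin peaks in each condition. Junb, an AP-1 subunit, had 9 and 4 with 1 and 5 myogenin peaks, flanks shared with its neighbors included. None of the myogenin peaks at Nfix or Junb overlapped between conditions, and all had the smallest length. In the segment, 45.8% of control and 62.9% of bexarotene myogenin peaks were of 1 condition only. Of the 11 control p300 peaks at Nfix, 10 had the smallest length. Chd9, a chromatin remodeler, had 7 control and 6 bexarotene p300 peaks.

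**Figure D4:**
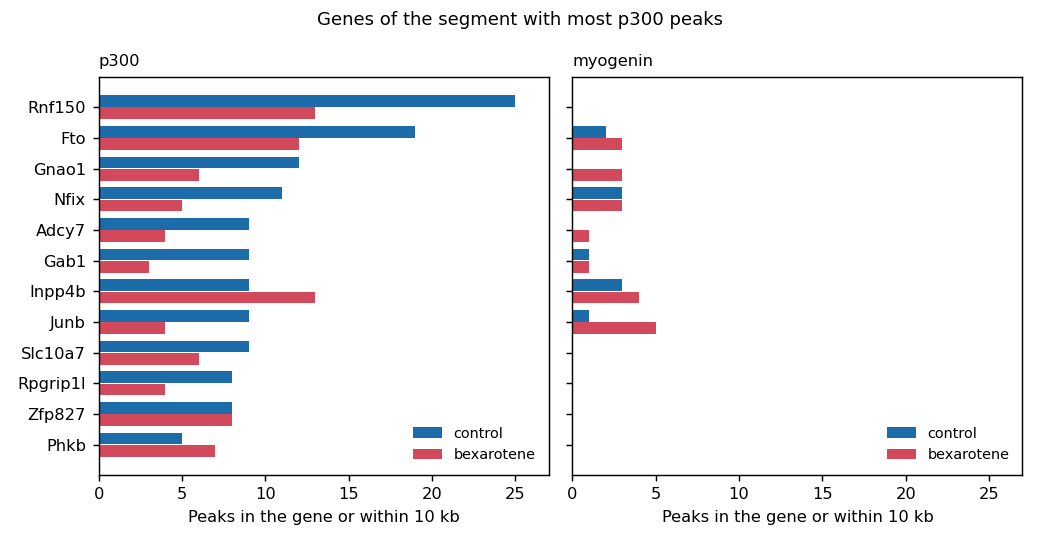
Number of p300 (left) and myogenin (right) peaks in each gene or within 10 kb of it, in control cells (blue) and after bexarotene (red), for the genes with most p300 peaks. Rnf150 has the most control p300 peaks, 25, and ties with Inpp4b at 13 after bexarotene, and Inpp4b and Phkb have more bexarotene than control peaks.

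By gene group, 14 of the 15 genes for muscle signaling, contraction and metabolism had a control p300 peak and 12 had a bexarotene peak, where 57.5% and 44.0% of all coding genes of the segment had one. Cyld, a deubiquitinase, had neither. The gene lists were chosen with earlier results of these data known and were not matched for gene length, so these shares are a description. Il15, a myokine, had 5 control peaks and 1 bexarotene peak, and Mylk3, a myosin light chain kinase, had 3 and 2 with 1 myogenin peak in each condition. Of 20 transcription and chromatin regulators, 12 and 8 had a p300 peak, shares near those of all coding genes of the segment. Smad1, a BMP signal transducer, had 2 in each condition, whereas Irx6 had none. All 4 metallothionein genes, which encode metal-binding proteins, had a control p300 peak and 3 had a bexarotene peak, and none had a myogenin peak. Mt2 had 5 and 2 and Mt1 had 4 and 2; the flanks of these neighboring genes overlap, and a peak can count for both. All 4 genes of extracellular matrix and adhesion had a control p300 peak, and Gpr56, an adhesion receptor, had 1 and 2 with 3 and 4 myogenin peaks. Of 3 chemokine genes, Cx3cl1 had 4 and 1 p300 peaks and Ccl17 none.

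Clusters of p300 peaks are described next, and their number follows in part from the density that chose the segment. With centers up to 12500 bp apart joined, 58.75% of the control peaks were in a cluster of 2 or more, against 53.9% in the rest of the chromosome. Clusters of 5 or more numbered 12 in the segment and 8 in the rest of the chromosome. Those held 20.75% and 6.23% of the control peaks. After Rnf150, the largest in the segment lay over Prdx2, Junb and Hook2 with 10 peaks in 21.3 kb (chr8:87493226-87514515). The next lay over Adcy7 with 9 and over Gnao1 with 7. The bexarotene list is smaller, with 231 peaks in the segment against 400. In it 1 cluster of the segment reached this size, with 6 peaks in Inpp4b (chr8:84372039-84407075). The rest of the chromosome also held 1.

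The longest control peak, of 1064 bp, lay in intron 1 of Rnf150 (chr8:85394580-85395643), and its sequence is shown above. The next lay in intergenic DNA with Irx3, a homeobox gene, as the nearest TSS (968 bp, chr8:94425379-94426346). It held the longest bexarotene peak (784 bp). A peak of 844 bp covered part of exon 26 of Rpgrip1l, and peaks of 831 and 742 bp lay at promoters of Adcy7 and Nfix.

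By place, control p300 peaks within 1 kb of a TSS made 12.75% in the segment and 9.66% in the rest of the chromosome. Those over 50 kb from a TSS made 29.3% and 42.4%. These are positions of the peaks whose density chose the segment, and the shares are a description. Per Mb of each kind of place, the ratio of segment to rest for control p300 was 2.66 at promoters, 4.09 in exons, 2.69 in introns and 2.27 between genes. The ratio was above 1 in each of these, but it splits the p300 count that chose the segment and is a description too.

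In control cells 11 of the 400 p300 peaks (2.75%) overlapped a myogenin peak, against 78 of 818 (9.54%) in the rest of the chromosome. After bexarotene the shares were 6.93% (16 peaks) and 18.4%. The denominator of these shares is the p300 count for which the segment was chosen, so the lower share is a description. Seen from myogenin, 22.9% of its control peaks in the segment and 31.2% outside overlapped p300. After bexarotene the myogenin shares were 22.9% and 23.5%. These shares also depend on the p300 density that chose the segment, so they are a description and were not tested. Merging all lists gave 576 regions, of which 273 were p300 in control only, 107 p300 after bexarotene only and 104 p300 in both without myogenin. Only 7 regions were in all 4 lists. These lay in Fto (2 regions), Gab1 and Nod2, an innate immune receptor. The others had Mmp15, Gtl3 and Tmem188 as the nearest TSS.

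Motif shares at the p300 peaks are given as a description, since these peaks chose the segment. The bZIP consensus TGAGTCA, looked for on either strand up to 100 bp from a peak center, was found at 19.5% of control peaks in the segment and 30.4% outside. Of all windows of 200 bp in the segment, 3.38% held it. After bexarotene the shares were 15.2% and 31.8%. The E-box CAGCTG or CACCTG within 50 bp was found at 15.5% and 22.0% of control peaks, where 10.6% of windows of 100 bp held it. After bexarotene the E-box shares were 17.3% and 22.6%. Any CANNTG was found at 41.0% of control peaks in the segment and 54.0% outside, where 41.5% of windows in the segment held it. After bexarotene the CANNTG shares were 48.5% and 53.1%. The Runx motif TGTGGT was found at 27% and 32.8% of control peaks and at 22.5% and 33.0% of bexarotene peaks, with 14.9% of windows. The Tead motif GGAATG was found at 10.75% and 18.2% of control peaks and at 8.66% and 16.2% of bexarotene peaks, with 10.7% of windows. The Sp1 motif GGGCGG went the other way, at 16.0% and 9.66% of control peaks and at 17.7% and 8.38% of bexarotene peaks, with 2.52% of windows. For peaks over 1 kb from a TSS, the Sp1 shares were 9.46% and 5.41% in control cells and 9.55% and 3.74% after bexarotene. The RXR half-site AGGTCA was found at 11.75% and 10.0% of control peaks and in 11.7% of windows. After bexarotene the shares were 9.52% and 13.97%, of the opposite sign. Neighboring peaks can share a locus and are not independent.

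**Figure D5:**
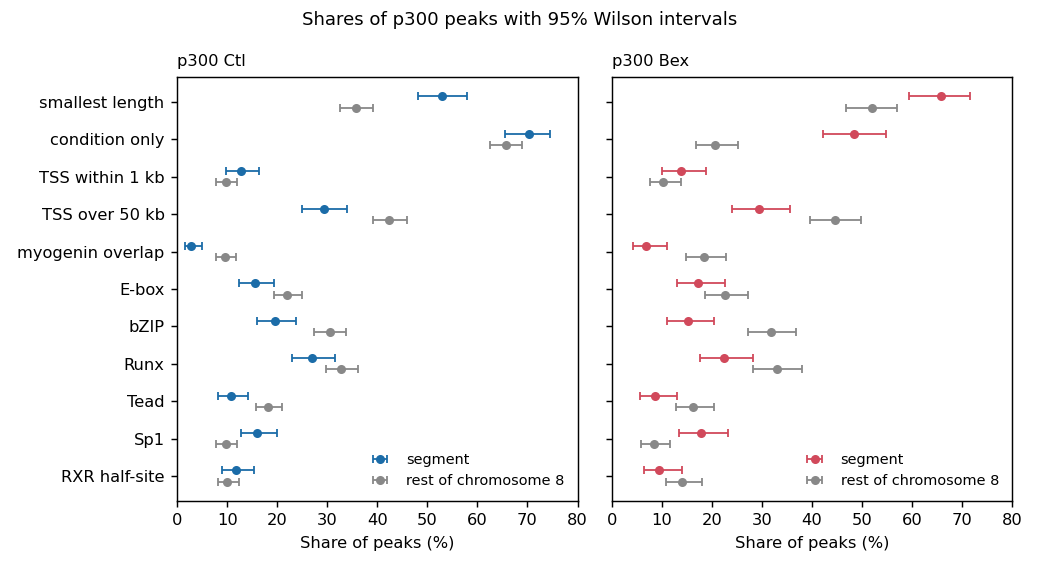
Shares of p300 peaks (percent) with each feature, in the segment (colored) and in the rest of chromosome 8 (grey), in control cells (left) and after bexarotene (right); points are shares and bars 95% Wilson intervals. Shares at the smallest length are higher in the segment, 53.0% against 35.8% in control cells, and shares with a bZIP consensus lower, 19.5% against 30.4%.

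Motif shares were also taken over the peaks longer than the smallest. In control cells the bZIP consensus was then found at 27.7% in the segment and 33.9% outside, and the E-box at 17.0% and 22.3%. After bexarotene the bZIP shares were 21.5% and 38.4%, and the E-box shares were 26.6% and 26.2%. The Runx shares were 28.7% and 33.1% in control cells and 31.6% and 34.9% after bexarotene. The Tead shares were 11.2% and 19.2% in control cells. After bexarotene the Tead shares were 17.7% and 16.3%, of the opposite sign to those over all peaks. The part of short peaks in the motif differences was not tested further.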

How the data were processed

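p300 and myogenin were measured by ChIP-seq in C2C12 cells, with 1 library per factor and condition. The authors aligned the p300 reads with Bowtie and the myogenin reads with BWA to mm9, removed duplicates with Picard and called peaks in each library separately with HOMER. The deposited lists hold positions (chromosome, start and end) and no tag counts or scores, so the peak threshold could not be varied. Starts were counted from 0 and are printed counted from 1. Of 8 samples, 4 have a list, and the others were not used here.

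The members and gene lists were chosen with earlier results of these data known. Named genes were the 10 with most control and the 5 with most bexarotene p300 peaks within 10 kb (ties kept), the genes of fixed lists, those at the limits, the longest peaks, clusters of 5 or more and regions of overlap; Chd9 was also named for its counts. Overlap meant at least 1 bp. Genes came from GENCODE vM1 on mm9. Densities were divided by known bases, shares have 95% Wilson intervals, and ratios exact conditional intervals. Differences of shares have 95% Newcombe intervals. The block was fitted by least squares. The work ran in Python 3.11.15 (pandas 2.3.3, pysam 0.24.0, numpy 2.4.6, scipy 1.17.1), with functions tested on simulated data. On simulated blocks of like contrast the fit often missed an edge by several bins, so edge ranges are printed. A planned share of repeats was not computed, since the genome used here is not repeat-masked.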

Additional observations from a re-analysis of the deposited data

How the results depend on the processing

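Of 50 alternatives for 16 results, 25 stayed within the counting interval of the reported value (100 kb for edges), and in the others the value moved. For peaks longer than the smallest, the density ratio was 1.88 (control p300), 2.41 (bexarotene p300), 0.603 (control myogenin) and 0.850 (bexarotene myogenin), the bexarotene over control ratio 0.420 (0.328 outside), the control-only share 48.4% (52.8% outside), the bexarotene-only share 19.0%, the bZIP share 27.7%, and the edges 129 and 129.5 Mb; with blocks of at least 5 Mb, an alternative chosen after seeing the data, the left edge was 79.8 Mb. Against all other autosomes the control p300 ratio was 2.21, and per TSS the p300 ratios were 2.07 and 2.73. Without the bins from 86 to 88 Mb the myogenin ratios were 0.629 and 0.912. At 50% reciprocal overlap the control-only share was 76.3% (76.5% outside) and the bexarotene-only share 58.9% (46.4% outside). Within 2 kb of a TSS the control share was 16.5%. With the bexarotene myogenin list 5.00% of control p300 peaks overlapped. E-box shares were 26.75% within 100 bp and 41.0% for CANNTG (35.1% and 54.0% outside), and the bZIP share was 12.75% within 50 bp (20.5% outside). The right edge was 98.05 Mb in 50 kb and 98 Mb in 500 kb bins. No paired analysis was possible because each condition has 1 library. Depth is unknown, so differences in depth between the libraries cannot be told apart from differences between conditions.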

Other observations

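Past the right limit, 7 bexarotene p300 peaks of 158 bp each lay from 100.03 to 100.97 Mb, where no control peak was called in the same Mb. All 7 were bexarotene-only, where 20.3% of all bexarotene p300 peaks were, and all had the smallest length. The GC content of their central 200 bp ran from 28.0% to 39.5%, against a median of 45.5% for the bexarotene peaks of the segment. The nearest coding TSS, of 1700047G07Rik or Cdh8, were 972 kb or more away.

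In aligned stretches of 0.5 Mb, the most control p300 peaks in the segment were 25, from 93.5 to 94 Mb around Fto. Outside it, 129 to 129.5 Mb, near Tomm20, held 32 control and 18 bexarotene p300 peaks with 9 and 13 myogenin peaks. From 11 to 11.5 Mb, near Col4a2, a collagen chain of basement membranes, there were 30 and 14 p300 peaks with 4 and 6 myogenin peaks. From 73 to 73.5 Mb the order was turned, with 8 and 6 p300 peaks and 18 and 12 myogenin peaks.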
